A study of Caenorhabditis elegans with 18 samples.

Results

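The libraries labelled set-25 were compared with those of the wild type N2 in LEM-2 chromatin immunoprecipitation sequencing (ChIP-seq) of early Caenorhabditis elegans embryos. They were chosen by their strain label, which gave 12 of the 18 libraries of the series: 3 LEM-2 IP and 3 input libraries labelled set-25(n5021) III, and 3 IP and 3 input libraries of N2 (Bristol). The remaining 6 libraries were from a met-2 mutant and are used here only for the shared estimate of the spread and as values placed beside the results. Embryos of both strains were collected before the bean stage from cultures at 20 degrees, after synchronization of the larvae. Chromatin was taken from whole fixed embryos, so that a value averages over all their cells. The labels name no transgene and no treatment, and the antibody against LEM-2 was the same in both strains. The labels describe the replicates as independent biological ones. Columns carry a strain and a letter (a, b or c) in place of the replicate number, and libraries are named here by these letters.

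LEM-2 sits in the inner membrane of the nuclear envelope, and DNA recovered with it is taken as lying close to the nuclear periphery. In worm embryos the outer parts of the autosomes (the arms) are rich in repeats and in methylated lysine 9 of histone H3 and contact the periphery, whereas the middle parts hold many broadly expressed genes and lie more inside. On the X chromosome such contact is best known for the left end. SET-25 is the histone methyltransferase that trimethylates this lysine in embryos. MET-2, the worm homologue of SETDB1, makes the mono- and dimethylated forms, and CEC-4, a chromodomain protein of the nuclear envelope, holds methylated chromatin there. The comparison asks where along the chromosomes LEM-2 contact differs in embryos labelled as lacking SET-25.

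The labels were checked through DNA intervals that single libraries lacked, and this check separated the 3 set-25 columns from each other. The labels place the set-25 allele on chromosome III, and chromosome III from 13287501 to 13289000 held 4, 0 and 0 reads in the set-25 inputs a, b and c, against 620, 428 and 488 reads in the N2 inputs. All 3 set-25 columns therefore carried this gap, in the IP libraries as well (3, 0 and 0 reads against 457, 288 and 224 in N2). Chromosome III from 8376501 to 8377500 held 684 reads in set-25 input a but 0 and 0 in inputs b and c, against 435, 358 and 425 in N2. This second gap was also present in the met-2 inputs, with 3, 0 and 1 reads, so columns b and c lacked an interval that the met-2 libraries also lacked and column a did not. On chromosome V from 1646001 to 1647500, set-25 inputs a, b and c held 791, 1 and 2 reads, against 0, 471 and 541 reads in N2 inputs a, b and c. In set-25, columns b and c thus differed from column a in their DNA, and N2 column a differed from N2 columns b and c. The comparison is therefore one of libraries labelled set-25, and every result is given for column a and for columns b and c. No interval was found that set-25 columns b and c alone lacked. The intervals could not be assigned to genes here.

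The 12 libraries held between 23.36 and 64.45 M reads, with N2 IP c the shallowest and set-25 input a the deepest. Reads were averaged over 10029 bins of 10 kb, and the median bin held between 1892 and 3505 reads in the IP libraries and between 3306 and 6118 in the inputs. Between replicates of a group, reads per bin gave a chi-square of 6.73 to 86.5 for each degree of freedom, so every pair differed by more than sampling noise. LEM-2 enrichment of a column is its IP value minus the input value of the same letter, on the log2 scale, so that 0 means no enrichment over input and 1 a doubling. Every library was scaled to the same total, so all values are relative to the genome-wide level of their own library.

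The range of LEM-2 enrichment over the genome was smaller in every set-25 column than in the N2 columns. The SD over the 10029 bins was 0.626, 0.493 and 0.420 in set-25 columns a, b and c, against 0.857, 0.648 and 0.655 in N2. Column a of set-25 thus came close to N2 columns b and c, and the SD was largest in column a of both strains. In the met-2 columns the SD was 0.204, 0.319 and 0.481. The median bin had an enrichment of -0.20, -0.09 and -0.07 in set-25, against -0.30, -0.23 and -0.23 in N2.

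LEM-2 enrichment of the autosomal arms over the middle parts was lower in set-25, in all 3 columns. This arm contrast is the mean of the outer parts minus that of the middle parts, where each chromosome is cut into a left, a middle and a right part of the same length. It was 0.78, 0.49 and 0.34 in set-25 columns a, b and c, against 1.22, 0.84 and 0.80 in N2. The columns of the strains did not overlap, although set-25 column a lay only just below the lowest N2 column. The mean was 0.53 ± 0.22 in set-25 and 0.95 ± 0.23 in N2 (SD, n = 3 each), a difference of -0.42, which leaves 56.2% of the N2 contrast. The exact two-sided permutation test gave p = 0.1, the smallest value that 3 against 3 columns allow, and 0.2 after adjustment over the 2 contrasts tested. In met-2 the contrast was 0.21, 0.30 and 0.27, below every set-25 column.

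Taken letter by letter, column a of set-25 was displaced from the N2 column of the same letter about as far as columns b and c. The arm contrast of set-25 minus that of N2 was -0.44 for letter a, -0.35 for letter b and -0.46 for letter c. By the same measure, columns b and c lay below column a by -0.36 in set-25 and by -0.40 in N2, so the higher contrast of column a was present in both strains. In met-2, column a had the lowest contrast, 0.21, against 0.30 and 0.27 in columns b and c. Whether a letter marks a shared day or preparation is not given in the sources used here, and its part in the results was not tested. Differences by letter therefore compare columns by name and not known pairs.

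**Figure D1:**
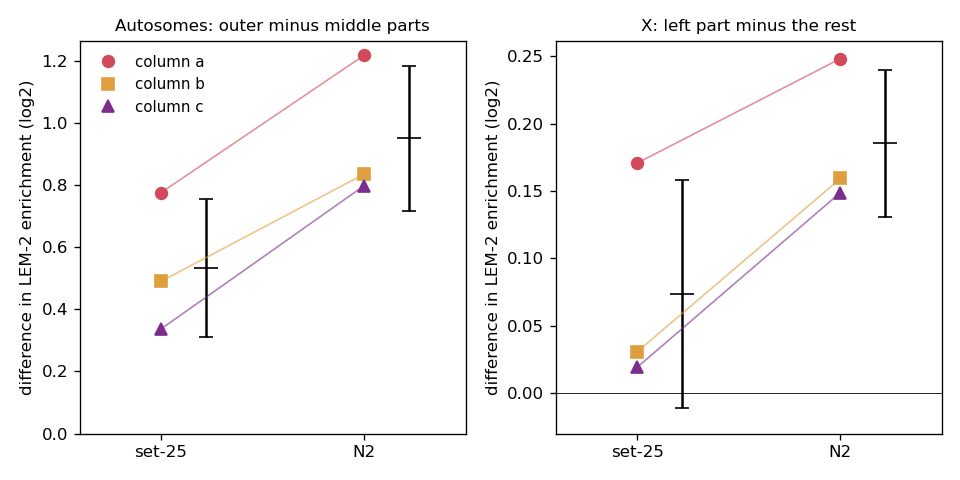
LEM-2 enrichment contrasts (log2, vertical axes) of each column in set-25 and N2: left, the outer minus the middle parts of the autosomes, and right, the left part of X minus the rest of X; points are columns, lines join columns of the same letter, and bars are the mean and SD of 3 columns. The set-25 arm contrasts of 0.78, 0.49 and 0.34 lie below all N2 columns, whereas the X contrast of set-25 column a, 0.17, lies within the N2 range.

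The left end of X separated the set-25 columns. The left part of X minus the rest of X was 0.17, 0.03 and 0.02 in set-25 columns a, b and c, against 0.25, 0.16 and 0.15 in N2. Both b and c were close to 0 and below all N2 columns, and column a was within the N2 range. Letter by letter, the differences from N2 were -0.08, -0.13 and -0.13 for a, b and c. Columns b and c lay below column a in N2 as well, by -0.09, against -0.15 in set-25. The mean was 0.07 ± 0.08 in set-25 and 0.19 ± 0.05 in N2 (SD, n = 3 each), a difference of -0.11 with an exact two-sided permutation p of 0.3, also 0.3 after adjustment. When each IP column was set against the mean input of its strain, the strains did not overlap (p = 0.1, exact permutation test). The same p, the smallest possible with the columns left, was found without set-25 column a, where the difference was -0.16.

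Among the 18 chromosome parts, 3 arms lay lower in all set-25 columns than in any N2 column and 6 parts lay higher, while 9 overlapped. The right arm of I had the largest difference of the 3, with 0.02, -0.10 and -0.10 in set-25 columns a, b and c, against 0.25, 0.13 and 0.11 in N2. Its mean difference was -0.22, and the letters gave -0.23, -0.23 and -0.21. The right arm of V had 0.20, 0.13 and 0.10 in set-25, against 0.35, 0.27 and 0.24 in N2, with -0.15, -0.14 and -0.14 by letter. In both arms the 3 letters gave nearly the same difference, and set-25 column a stayed the highest of its strain. The left arm of IV had a smaller mean difference of -0.09, with set-25 column a at 0.0849 and the lowest N2 column at 0.0951.

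The 6 parts that lay higher in all set-25 columns were the middle parts of II, IV and V and all 3 parts of X. The middle of II had -0.69, -0.47 and -0.33 in set-25 columns a, b and c, against -1.12, -0.75 and -0.74 in N2, a mean difference of 0.37. The middle of X had -0.46, -0.29 and -0.22 in set-25, against -0.79, -0.53 and -0.54 in N2, a mean difference of 0.30. The left part of X, which holds the end known for contact, had -0.16, -0.15 and -0.12 in set-25, against -0.39, -0.26 and -0.27 in N2. Higher here means less depleted, since the means of all 6 parts were below 0 in both strains.

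A further 3 arms lay below N2 in columns b and c and not in column a, and these were the left arms of I, II and III. In the left arm of I, column a was at 0.1061, only just above the lowest N2 column at 0.1058. By letter the differences there were -0.13, -0.12 and -0.13 for a, b and c. They were -0.09, -0.11 and -0.11 in the left arm of II, and -0.08, -0.16 and -0.16 in that of III. The left arm of III had 0.12 and 0.08 in set-25 columns b and c and 0.25 in column a, against 0.33, 0.28 and 0.24 in N2. In turn, b and c but not a lay above N2 in the middle parts of I and III, the right arms of II and IV and the left arm of V, where the mean differences were 0.03, 0.02 and 0.04. The middle of I had the largest mean difference of any part, 0.41, with -0.44 and -0.33 in set-25 columns b and c and -0.80 in column a, against -1.21, -0.79 and -0.79 in N2. Column a of set-25 was there at the level of N2 columns b and c, and by letter the differences were 0.40 for a, 0.35 for b and 0.47 for c. The exact permutation p ranged from 0.1 to 0.6 over the 18 parts, and the lowest adjusted p was 0.2, so no part passed.

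**Figure D2:**
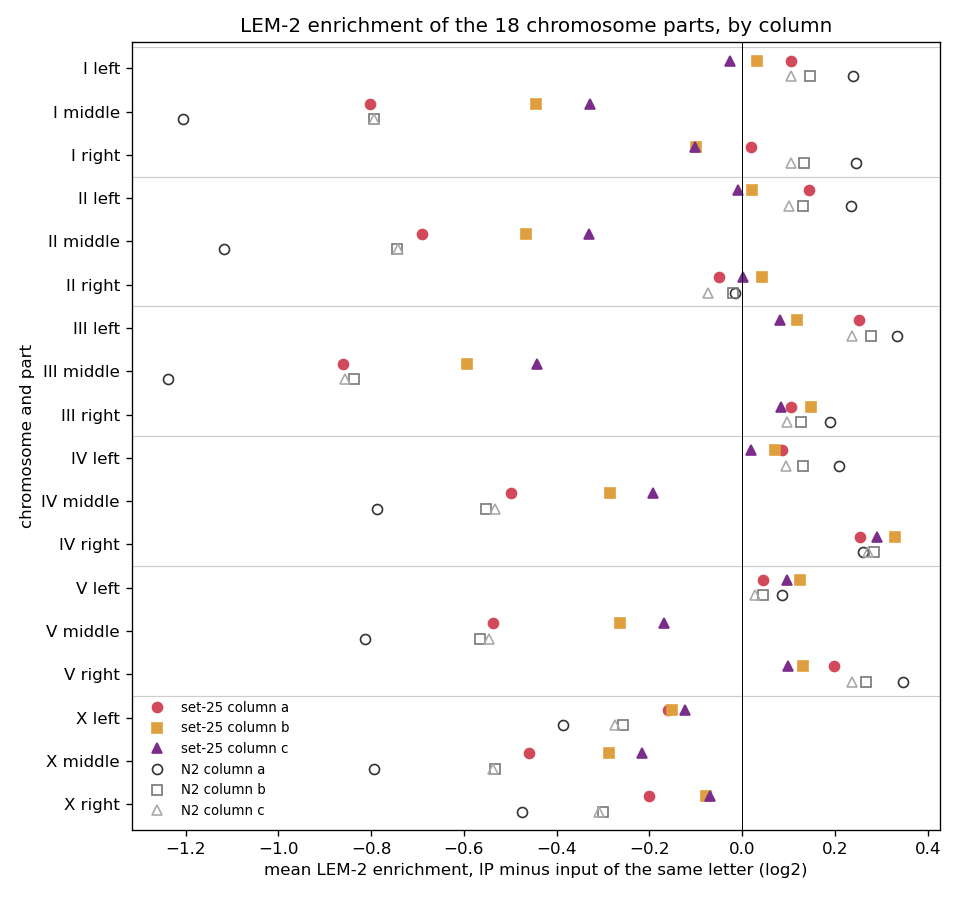
Mean LEM-2 enrichment (log2, horizontal axis) of the 18 chromosome parts (vertical axis: chromosome and part), with filled symbols for set-25 columns a, b and c and open symbols for N2 columns a, b and c. The set-25 columns lie below N2 in arms such as the right arm of I (0.02, -0.10 and -0.10 against 0.25, 0.13 and 0.11), and in the middle parts columns b and c lie above N2 and column a is the lowest of the set-25 columns.

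These differences stand relative to a shift of the whole profile. Over all bins the median of set-25 minus N2 was 0.18, and it was 0.06 for column a and 0.23 for columns b and c. When the median bin of every library was set to 0, the arms that differed by little changed sign: the difference of the right arm of II was then -0.12 in place of 0.03, that of the right arm of IV -0.13 in place of 0.02, and that of the left arm of V -0.12 in place of 0.04. All 10 autosomal arms were then lower in all 3 set-25 columns, and on X the middle and the right part lay higher. The left part of X differed by 0.01 on that scale.

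At the level of single bins, LEM-2 enrichment in set-25 fell mainly in the autosomal arms and rose mainly in the middle parts and on X. Of the 10029 bins, 3047 (30.4%) changed, of which 1059 (10.6%) fell and 1988 (19.8%) rose at an adjusted p under 0.05 (limma, Benjamini-Hochberg), and 5016 had an unadjusted p under 0.05. In the arms, 1031 of 5503 bins fell and 418 rose. In the middle parts, 6 of 2754 fell and 1053 rose, and on X 22 of 1772 fell and 517 rose. Among arms, that on the right of I had the highest share of falls, 187 bins or 37.2% of it, and the right arm of V the highest number, 194 or 27.8% of it. On the median-centred scale the split turned round, with 16.4% of bins lower and 3.02% higher, so the number of rises relative to falls depends on how the libraries are levelled.

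The falls were mostly shared by the 3 set-25 columns, and the rises less completely. Among the 1059 bins that fell, all of columns a, b and c lay below all N2 columns in 946 (89.3%), and columns b and c alone did so in the other 113. Among the 1988 that rose, all 3 columns lay above N2 in 1586 (79.8%), and columns b and c alone in 402 (20.2%). In the middle parts the share with all 3 columns was 73.4% (773 of 1053), and on X it was 88.4% (457 of 517). The call itself requires the columns to stand apart from N2 on average, so these shares describe the called bins.

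Over all bins, whether called or not, the pair of columns that stood together without the third was b and c. Columns a, b and c were all below N2 in 1594 bins (15.9%), and b and c without a in 1064 (10.6%), against 58 bins (0.578%) for a and b without c and 203 (2.02%) for a and c without b. On the upper side all 3 columns lay above N2 in 2822 bins (28.1%), and b and c without a in 2626 (26.2%), against 121 (1.21%) for a and b and 86 (0.858%) for a and c. A single column stood below N2 in 364 bins (3.63%) for a, 71 (0.708%) for b and 397 (3.96%) for c. Above N2 stood a alone in 438 bins (4.37%), b alone in 232 (2.31%) and c alone in 329 (3.28%). Of the bins below N2 in all 3 columns, 1549 were in the arms and 32 on X, and of those below N2 in b and c alone, 929 were in the arms and 105 on X. Above N2, columns b and c alone took 50.9% of the middle parts, more than the 40.1% where all 3 columns were above, and on X the order was the opposite, 25.1% for b and c alone and 52.7% for all 3. These classes set each set-25 column against all N2 columns, and column a had the widest profile in both strains. Against the N2 column of the same letter, column a was higher in 97.1% of the middle bins, with a median difference of 0.36, column b in 94.0% with 0.31 and column c in 96.9% with 0.41. In the bins above N2 in b and c alone, the median differences by letter were 0.27, 0.28 and 0.36 for a, b and c, and in those below they were -0.11, -0.26 and -0.28.

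**Figure D3:**
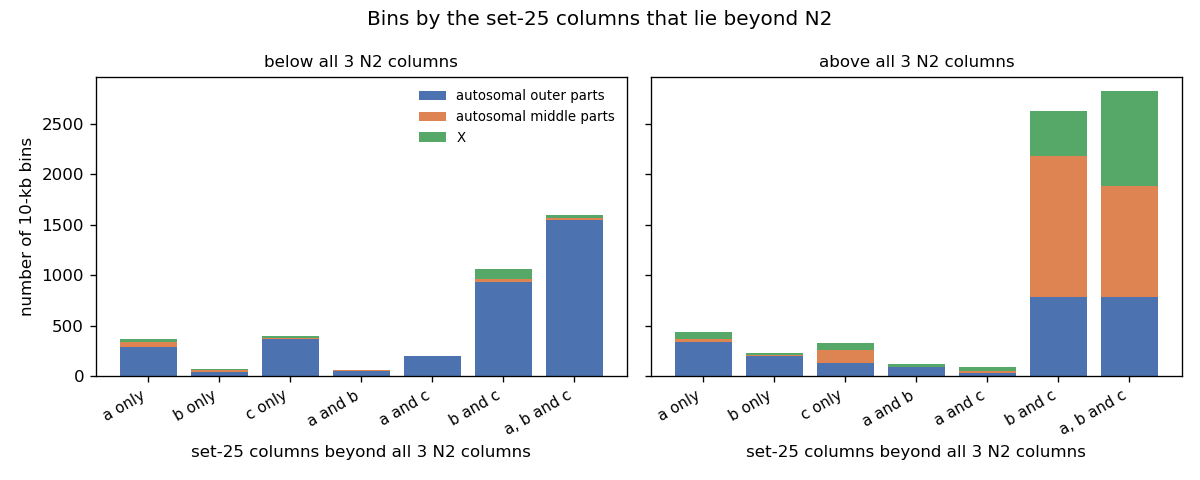
Number of 10-kb bins (vertical axis) in which the named set-25 columns, and no others, lie below (left) or above (right) all 3 N2 columns, coloured by autosomal arms (outer parts), autosomal middle parts and X. Bins shared by a, b and c (1594 below, 2822 above) and bins of b and c without a (1064 below, 2626 above) are far more numerous than those of any other combination.

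Most of the bins below N2, shared or of b and c alone, lay toward the chromosome ends. Bins below N2 in all 3 columns lay at a median distance of 2.12 Mb from the nearer chromosome end, and those below in b and c alone at 1.96 Mb. The median was 4.18 Mb for all bins and 2.75 Mb for all bins of the autosomal arms. Within the 4 Mb next to an end lay 91.2% of the shared bins and 91.4% of the b-and-c bins, against 47.9% of all bins and 72.7% of arm bins. X held 9.87% of the b-and-c bins but 2.01% of the shared ones. The median enrichment of the shared bins was 0.35, 0.23 and 0.18 in set-25 columns a, b and c, against 0.76, 0.59 and 0.58 in N2. In the b-and-c bins columns b and c were at about the same medians, 0.25 and 0.19, and column a was at 0.59, against 0.74, 0.52 and 0.47 in N2. An adjacent bin of their own class was found for 83.4% of shared and 73.9% of b-and-c bins below N2, shares that were not set against a baseline.

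Column a was then set against N2 alone in a fit that gave it a coefficient of its own. There this 1 column, an IP library with its input, is assumed to vary like the other groups. It differed from N2 in 20 bins (0.199%), all of them falls of -0.56 to -0.89, and 871 bins had an unadjusted p under 0.05 (limma). Columns b and c differed from N2 in 5586 bins (55.7%), with 1689 falls (16.8%) and 3897 rises (38.9%). With 1 column against 2, the counts of column a and of columns b and c are not of equal power. In the 1689 bins that fell in b and c, column a had the same sign in 1379 and lay below all N2 columns in 1075 (63.6%). Over all bins column a lay below them in 22.1%. Its median difference from N2 in the 1689 bins was -0.18, against -0.47 for b and c. In the 3897 bins that rose, column a had the same sign in 3562 and lay above all N2 columns in 2131 (54.7%), against 34.6% of all bins. Its median there was 0.16, against 0.48 for b and c. These bins were chosen against the same N2 columns with which column a is compared, which favours the same direction in column a. With the pair b and c left out of the fit altogether, column a gave 0 calls by limma and 681 bins at an unadjusted p under 0.05.

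The 20 bins called for column a, in the fit where columns b and c also enter the spread, were all in arms. Of these bins 10 were in the right arm of V, 5 in the left arm of II, 3 in the right arm of I and 2 in the left arm of I. They were among the falls of all 3 columns in every case, and all 20 were also called for columns b and c. Their median enrichment was -0.02, -0.18 and -0.17 in set-25 columns a, b and c, against 0.82, 0.60 and 0.64 in N2. These bins were thus enriched in N2 and near or below the level of input in all 3 set-25 columns, and the met-2 medians in these bins were 0.08, 0.03 and -0.01. In 4 of them column a lay further below N2 than columns b and c did. An example, chosen after the values were seen, is chromosome I from 13230001 to 13240000, where columns b and c differed from N2 by -0.35 and column a by -0.80.

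The bins with the largest falls shared by all 3 columns were named by a rule, at most 1 per 500 kb. Chromosome V from 17150001 to 17160000, in the right arm, fell most. Its enrichment was -0.11, -0.71 and -0.57 in set-25 columns a, b and c, against 0.74, 0.52 and 0.53 in N2. N2 columns were enriched there and all set-25 columns were depleted, a change of -1.06 ± 0.13 (SE, adjusted p = 0.000179, limma). The IP libraries held 3619, 1836 and 1729 reads in this bin in set-25, against 5608, 3820 and 3179 in N2, while the inputs held 5951, 4455 and 3695 reads, against 4031, 3110 and 3534.

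A similar loss in all 3 columns was found in the left arm of I, from 2040001 to 2050000. Its values were -0.20, -0.48 and -0.23 in set-25, against 0.80, 0.65 and 0.63 in N2, a change of -1.0 ± 0.10 (adjusted p = 8.81e-05, limma). The left arm of II from 2020001 to 2030000 had 0.21, -0.37 and -0.29 in set-25, against 0.95, 0.73 and 0.70 in N2, a change of -0.94 ± 0.13 (adjusted p = 0.000237, limma). Here column a kept part of its enrichment, and columns b and c were below input. Chromosome I from 13970001 to 13980000, in the right arm, had -0.24, -0.52 and -0.24 in set-25, against 0.63, 0.43 and 0.57 in N2, with column a at the level of column c.

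The other 4 named falls had changes between -0.76 and -0.81. On chromosome I from 210001 to 220000 the values were 0.14, -0.31 and -0.44 in set-25, against 0.85, 0.54 and 0.43 in N2 (adjusted p = 0.00321, limma). Near the other end of I, from 14870001 to 14880000, they were 0.37, 0.02 and -0.01 in set-25, against 1.02, 0.79 and 0.94 in N2 (adjusted p = 0.000497, limma). The bin on chromosome III from 11590001 to 11600000 had 0.77, 0.23 and 0.20 in set-25, against 1.38, 0.94 and 1.15 in N2 (adjusted p = 0.0118, limma), and so stayed above input in every column. Chromosome I from 12510001 to 12520000 had -0.32, -0.998 and -0.71 in set-25, against 0.33, -0.08 and 0.02 in N2, and was the 1 named fall near the level of input in N2 (adjusted p = 0.0186, limma).

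Letter by letter, the 8 named falls differed from N2 by -0.61 to -0.999 in column a, by -0.72 to -1.23 in column b and by -0.73 to -1.10 in column c. The ranges of the 3 letters overlapped widely. Set against the mean of all N2 columns, column a differed by -0.38 to -0.89 in the 8 bins. The met-2 means in the 8 bins lay between -0.46 and 0.42, with a median of 0.04.

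**Figure D4:**
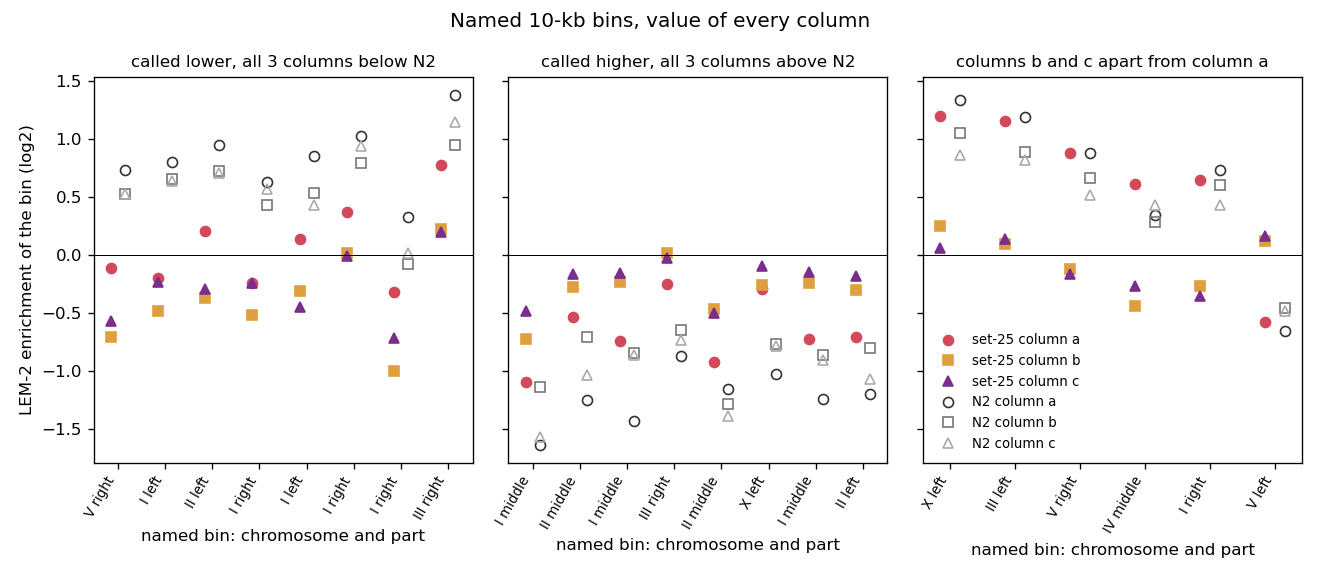
LEM-2 enrichment (log2, vertical axis) of the named 10-kb bins (horizontal axis: chromosome and part), with filled symbols for set-25 columns a, b and c and open symbols for N2 columns. The 8 bins with the largest shared falls (left) and the 8 with the largest shared rises (middle) have all set-25 columns on one side of N2, and in the 6 bins on the right set-25 columns b and c lie beyond N2 while column a, for instance 1.19 in the first bin, is within or on the other side of the N2 range.

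The largest shared rises were depleted bins that became less depleted, and their changes were smaller, between 0.63 and 0.68. Chromosome II from 5860001 to 5870000 had -0.53, -0.28 and -0.17 in set-25 columns a, b and c, against -1.24, -0.71 and -1.03 in N2, a change of 0.67 ± 0.15 (SE, adjusted p = 0.00837, limma). Chromosome I from 7940001 to 7950000 had -1.10, -0.72 and -0.48 in set-25, against -1.64, -1.14 and -1.56 in N2 (0.68 ± 0.19, adjusted p = 0.023, limma). Of the 8 named rises 5 were in middle parts, all of these on I and II.

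The other 3 named rises lay outside the middle parts. The bin on X from 2570001 to 2580000 had the lowest adjusted p of the 8, with -0.29, -0.26 and -0.09 in set-25, against -1.02, -0.76 and -0.78 in N2 (0.64 ± 0.10, adjusted p = 0.00096, limma). Columns a and b were alike there. On chromosome III from 9190001 to 9200000, just inside the right part, the values were -0.25, 0.01 and -0.02 in set-25, against -0.86, -0.65 and -0.73 in N2. This bin reached the level of input in columns b and c. The last was on chromosome II from 4790001 to 4800000, with a change of 0.63 ± 0.17. Column a alone passed in 0 of the 8 rises by limma and had an unadjusted p under 0.05 in 3 of them, with differences from the mean of N2 of 0.28 to 0.57.

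Few bins of 10 kb were called for a difference between columns b and c and column a, which is a single IP library with its input. With bins of 50 kb the shares were larger, 5.23% lower and 6.32% higher. At 10 kb most of the called bins were in arms. Columns b and c were lower than column a in 24 bins (0.239%) and higher in 1 (0.00997%), 25 bins in all (0.249%; adjusted p under 0.05, limma), and 2264 bins had an unadjusted p under 0.05. The left arm of III held 12 of the 25 bins, from 1090001 to 3370001. On I the right arm held 4, the right arm of V 3 and the left part of X 3, from 120001 to 1560001. Choosing bins by this difference favours a high column a and low columns b and c, so the levels given next only describe the chosen bins. Of the 24 lower bins, column a was not below all N2 columns in 23, and in 10 it was above all of them. The medians in the 24 bins were 0.12 and 0.10 in columns b and c and 0.92 in column a, against 1.01, 0.74 and 0.72 in N2. The met-2 medians in these bins were 0.08, 0.11 and 0.02.

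The same letters also differed within N2, in the same direction. In the 24 bins, which were chosen by this difference in set-25, columns b and c lay below column a by a median of -0.81 in set-25 and of -0.21 in N2, and 24 of the 25 bins had the same sign in both strains. The difference in set-25 minus that in N2 had a median of -0.62 over the 24 bins and ranged from -0.98 to -0.36, values that the choice of the bins favours. Over all bins 0 passed after adjustment for that difference (limma), and 341 had an unadjusted p under 0.05. The contrast of N2 columns b and c against N2 column a also called 0 bins, with 2659 at an unadjusted p under 0.05 (limma). A single column, that is an IP library and its input, decided the count. Without N2 column a, which enters only through the spread, 1230 bins were called. Without set-25 column b or without column c, where 1 column stands against 1, the calls were not kept.

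The bin in which columns b and c fell farthest below column a was at the left end of X, from 120001 to 130000. Its enrichment was 0.25 and 0.06 in set-25 columns b and c and 1.19 in column a, against 1.33, 1.05 and 0.86 in N2. Column a lay inside the N2 range, and columns b and c were close to the met-2 values of 0.31, 0.28 and 0.15. The difference of b and c from column a was -1.04 ± 0.15 (SE, adjusted p = 0.00968, limma), and that difference less the one in N2 was -0.66. This bin is in the part of X where the contrast of column a lay within the N2 range, although below N2 column a (0.17 against 0.25).

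The left arm of III from 1970001 to 1980000 had 0.09 and 0.14 in set-25 columns b and c and 1.15 in column a, against 1.19, 0.89 and 0.82 in N2 (-1.03 ± 0.16, adjusted p = 0.0119, limma). The right arm of V from 18450001 to 18460000 had -0.12 and -0.16 in columns b and c and 0.88 in column a, against 0.88, 0.67 and 0.51 in N2 (-1.02 ± 0.17, adjusted p = 0.02, limma). In both bins column a was at the upper end of the N2 values. The V bin lies farther toward the chromosome end than the bin with the largest shared fall, so losses with and without column a occurred in the same arm.

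Chromosome IV from 11060001 to 11070000 was the only one of the 25 bins in a middle part. It had -0.44 and -0.26 in set-25 columns b and c and 0.62 in column a, against 0.35, 0.28 and 0.43 in N2, so column a lay above N2 and columns b and c below it. The difference of b and c from column a was -0.97 in set-25 and 0.01 in N2. Chromosome I from 10950001 to 10960000, in the right arm, had -0.27 and -0.35 in columns b and c and 0.65 in column a, against 0.74, 0.60 and 0.43 in N2. This bin held 28468 reads in set-25 input a, where the median bin held 6118.

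The 1 bin in which columns b and c were higher than column a was on chromosome V from 5970001 to 5980000, in the left part. It had 0.12 and 0.17 in set-25 columns b and c and -0.58 in column a, against -0.66, -0.45 and -0.48 in N2 (0.72 ± 0.14, adjusted p = 0.0421, limma). Both b and c were above input and column a was at the N2 level, with met-2 at 0.04, -0.03 and 0.14. This call was lost in 8 of the 11 other settings, with an adjusted p of 0.0964 under the replicate block of letters and of 0.0724 to 0.403 without set-25 b or c, met-2 a or b, or N2 b or c (limma).

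Called bins lay in runs along the chromosomes. Of the 1059 bins that fell, 694 (65.5%) were in 66 runs of at least 5 called bins with gaps of at most 1 bin, and 65 of these runs were in arms. Their median length was 85 kb and the longest spanned 610 kb. Of the 1988 bins that rose, 1173 (59.0%) were in 119 runs with a median length of 90 kb, of which 68 were in middle parts and 28 on X.

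The longest run of falls was in the left arm of II from 1520001 to 2130000, with 59 of its 61 bins called. Its mean enrichment was 0.34, 0.04 and 0.08 in set-25 columns a, b and c, against 0.88, 0.64 and 0.66 in N2. Of the 3, b and c were near the level of input, column a kept part of the enrichment, and the differences by letter were -0.54, -0.60 and -0.58. All 3 columns were below N2 in 55 of its bins. Among its 1220 windows of 500 bp, 69.1% were below all N2 columns in set-25 column a, 88.2% in b and 87.0% in c. The run was chosen by falls in these same values, and no share over all windows was set beside them, so these shares only describe the run.

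A run of 590 kb in the right arm of V, from 16710001 to 17300000, had 0.21, -0.03 and -0.03 in set-25, against 0.81, 0.61 and 0.59 in N2. Its letters gave -0.60, -0.64 and -0.61, and all 3 columns were below N2 in 55 of 59 bins. A run of 250 kb followed on V from 17410001, with 0.33, 0.01 and 0.02 in set-25, against 0.83, 0.63 and 0.65 in N2. The next longest were 230 kb in the left arm of IV from 1400001 and 200 kb in the left arm of III from 2290001. The run on III had 0.59, 0.35 and 0.29 in set-25, against 0.94, 0.78 and 0.76 in N2, so more of the enrichment was left there in all 3 columns. It lies inside the stretch that holds the 12 bins of this arm in which columns b and c stood below column a.

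The longest run of rises, 380 kb in the middle of V from 13250001 to 13630000, was carried less by column a. Its mean was -0.54, -0.13 and -0.05 in set-25 columns a, b and c, against -0.89, -0.60 and -0.60 in N2, and in 17 of its 38 bins columns b and c alone were above N2. Of its windows, 33.3% were above all N2 columns in column a, 77.6% in b and 82.0% in c, shares that were also not set against those of all windows. The run of 370 kb in the middle of II from 5970001 to 6340000 had -0.43, -0.17 and -0.08 in set-25, against -0.88, -0.56 and -0.53 in N2, with all 3 columns above N2 in 30 of 37 bins. On X the longest run covered 240 kb from 9940001 to 10180000, with -0.49, -0.40 and -0.29 in set-25, against -1.03, -0.68 and -0.73 in N2. There all 3 columns were above N2 in 22 of 24 bins, and columns b and c alone in 0.

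**Figure D5:**
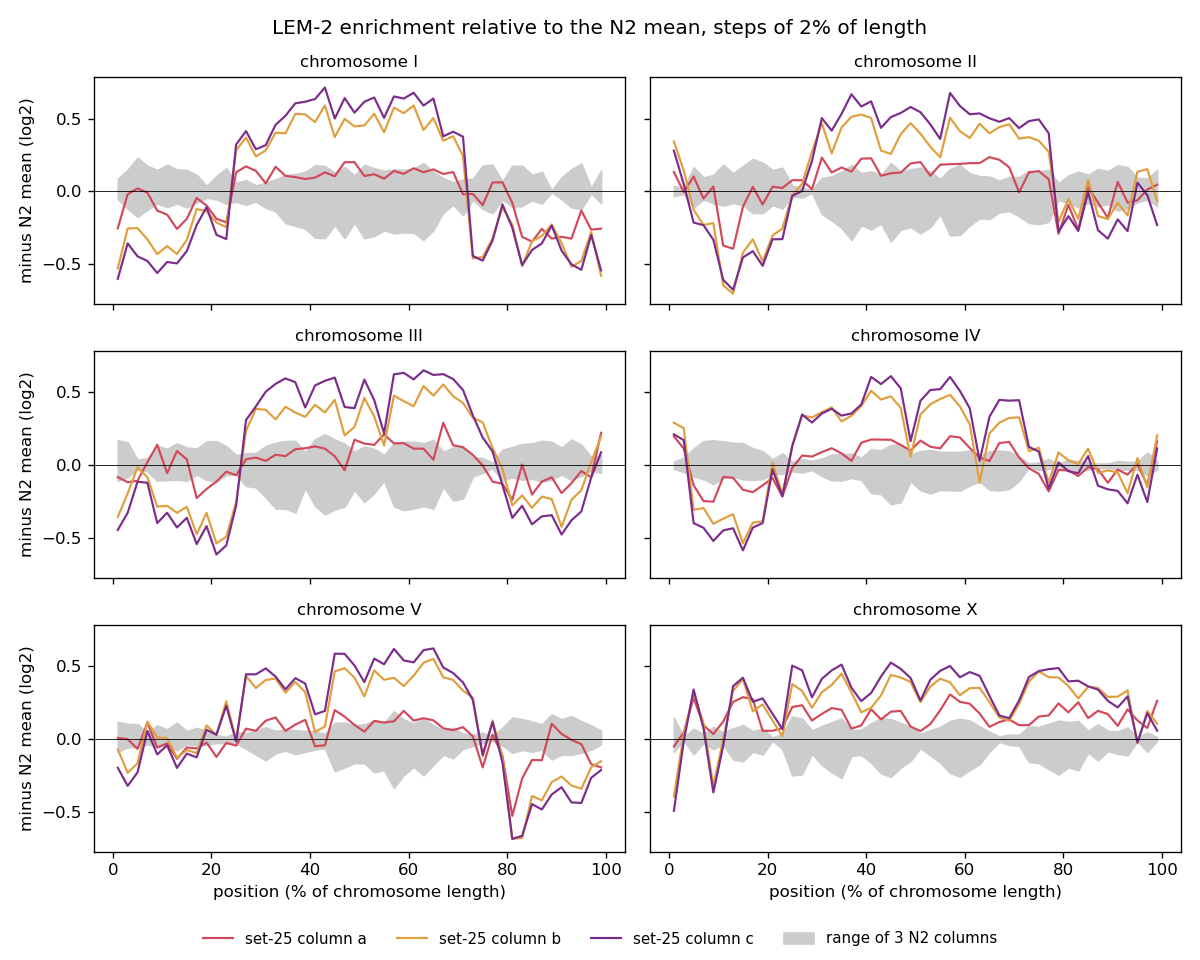
LEM-2 enrichment of each set-25 column minus the mean of N2 (log2, vertical axis) in steps of 2% of the length of each chromosome (horizontal axis: position in percent of length), with the range of the N2 columns in grey. Columns b and c are both below the N2 range in 12 of 17 steps of the left arms of I and III and of the right arm of V. They are below it in 14 of 17 of the right arm of I, against 8 of 17 of the right arm of III. In the right arms of II and IV and the left arm of V they are below it in 5, 6 and 5 steps and above it in 6, 8 and 8. They are above it in most steps of the middle parts and of X. Column a is mostly closer to 0.

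By distance from the nearer end, the autosomal loss was strongest some way inside the ends. Between 1 and 2 Mb from an end the mean was 0.44, 0.28 and 0.19 in set-25 columns a, b and c, against 0.67, 0.50 and 0.46 in N2, and 30.1% of the bins fell. All 3 columns also lay below N2 from 2 to 3 Mb, where 27.5% fell, and from 3 to 4 Mb, where 18.4% fell. In the outermost 1 Mb the strains overlapped, with 0.41, 0.35 and 0.26 in set-25, against 0.54, 0.42 and 0.39 in N2, and 19.5% of bins fell. From 5 Mb inward all 3 set-25 columns lay above N2, and between 7 and 8 Mb 46.3% of bins rose, against 19.8% of all bins.

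The ends of X differed from each other. In the 1 Mb at the left end the mean was 0.40, 0.27 and 0.23 in set-25 columns a, b and c, against 0.33, 0.30 and 0.31 in N2, so columns b and c lay below all N2 columns and column a above them. Of the 100 bins there, 14 fell and 19 rose, near the shares of 10.6% and 19.8% of all bins. In the outermost 2% of the length at this end, columns b and c lay -0.40 and -0.49 from the N2 mean and column a -0.05, against 0.15, -0.06 and -0.09 for the N2 columns. In the 1 Mb at the right end the mean was 0.14, 0.06 and 0.04 in set-25, against -0.04, -0.003 and -0.01 in N2, and all 3 set-25 columns lay above N2. With both ends pooled, all 3 set-25 columns lay above N2 at every distance between 1 and 8 Mb. At the left end alone this did not hold from 1 to 2 Mb. There columns b and c, at 0.04 and 0.006, lay below all N2 columns (0.15, 0.12 and 0.08), and column a, at 0.18, above them.

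Part of the difference was one of range, and it was set aside by giving every column's enrichment a median of 0 and the same SD over bins. On this scale 219 bins changed (2.18%), of which 218 (2.17%) fell and 1 (0.00997%) rose (limma), with 1820 at an unadjusted p under 0.05. Of the 218 falls, 213 were in arms, 5 in the middle part of V and 0 on X. All 3 set-25 columns were below N2 in 217 of them, and 212 were also among the 1059 falls above. The right arm of V held 63, the right arm of I 48, the left arm of II 35 and the left arm of IV 30. Among the named bins, 6 of the 8 shared falls and 1 of the 8 shared rises passed, and 0 of the 6 bins named for columns b and c passed the contrast with column a, which called 0 bins on this scale (limma, 1268 at an unadjusted p under 0.05). Of the 20 bins called for column a in the fit with a coefficient of its own, 19 were among the falls on this scale. The arm contrast on this scale differed by -0.30 with overlapping columns (exact permutation p = 0.2).

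The counts of bins depended on single columns, each left out as an IP library together with its input. Without set-25 column a, 1689 bins fell and 3903 rose, without column b 170 fell and 22 rose, without column c 200 fell and 28 rose, and without N2 column a 221 fell and 47 rose (limma). Column b of met-2, whose IP library was the shallowest of the series, entered only the spread. Without this column 694 bins fell and 846 rose.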

How the data were processed

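LEM-2 ChIP-seq and input libraries of early embryos were sequenced in pairs of reads, per the series' design text. The authors deposited values on the log2 scale for 200538 windows of 500 bp. The values show that each is log2 of a window's scaled reads plus 2, with every library scaled to 35.17 M reads, so enrichment is relative within a library. Whole reads were recovered for 100.0% of the values, within 0.01 of a whole number. The sources used here give no aligner, counting tool or filter. The build ce10 is named in the submitters' processing notes, but the table's chromosome ends differ from it, so coordinates are those of the deposited table and bins were not assigned to genes.

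The mean over windows was taken in 10029 bins of 10 kb. Requiring at least 10 input reads on average left out 0 bins, and 0 sample columns were left unused. Columns were mapped to strain and library kind by name, and set-25 was compared with N2. The test of bins was limma 3.58.1 (R 4.3.3), with empirical Bayes and a trend (18 libraries, 6 groups, 12 residual degrees of freedom, Benjamini-Hochberg over all bins). The set-25 column a had coefficients of its own in a second fit with 10 residual degrees of freedom. Contrasts and chromosome parts were compared by exact two-sided permutation tests over all splits of the columns, which cannot go below p = 0.1 with 3 against 3 columns. Tests were checked on simulated data. Alternatives were voom on the recovered reads, other scalings and bin sizes, a block for the letters and left-out columns (IP and input together).

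Named bins were the 8 largest falls and 8 largest rises among called bins whose 3 set-25 columns all lay beyond all N2 columns. To these came the 5 largest differences each way of columns b and c against a, among called bins where b and c lay beyond N2 and a did not (5 falls, and the 1 rise that met the rule). Both lists held at most 1 bin per 500 kb. The 5 longest runs each way were also named. Members, lists and tests were chosen with earlier results of these data known. No sequence is shown, since no genome of the table's build was used here.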

Additional observations from a re-analysis of the deposited data

Results flagged for a closer look

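Within the libraries labelled set-25, 25 bins differed between columns b and c and column a (limma, adjusted p under 0.05), a difference between libraries that share a label. Of these bins, 24 were lower and 1 was higher in columns b and c. The difference ranged from -1.04 to -0.65 in the lower bins, and columns b and c, but not column a, also lacked the interval on chromosome III that the met-2 libraries lacked. Depth differed along with it, since set-25 IP b and c held 31.01 and 25.71 M reads and IP a 41.92 M. The part of DNA content, depth or the letter of the column in these 25 differences was not tested.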

How the results depend on the processing

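The arm contrast difference of -0.42 lay between -0.54 and -0.28 with any 1 column left out, and the X left difference between -0.16 and -0.08. Neither contrast, and no named bin in the settings run for it (10-kb bins, and for columns b and c no voom, letter term or fit without met-2), changed sign. In these settings calls were kept in 127 and lost in 16 cases for the shared falls, 105 and 38 for the shared rises, 38 and 17 for the falls of columns b and c, and 3 and 8 for their 1 rise. Falls and rises of set-25 against N2 took 10.6% and 19.8% of bins. They took 16.4% and 3.02% after median-centring, 2.17% and 0.00997% at equal spread, 19.3% and 6.59% with voom and TMM scaling on the recovered reads, 6.80% and 8.59% in bins of 5 kb and 16.7% and 37.7% in bins of 50 kb. Rises took 7.76% with only N2 and set-25 libraries. The planned edgeR fit is not reported. Column a alone gave 0% and 0%, in the fit of its own coefficients 0.199% and 0%, and columns b and c there 16.8% and 38.9%, a split chosen after seeing the data. With 1 column (IP and input) left out, falls took 1.70% to 16.8% and rises 0.219% to 38.9% of bins. The cause was not tested.

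Columns b and c were lower than column a in 0.239% of bins and higher in 0.00997%. The shares were 1.38% lower after median-centring, 0% and 0% at equal spread, 0.0548% and 0% in bins of 5 kb, 5.23% and 6.32% in bins of 50 kb, and 0% and 0% after subtracting the same contrast in N2, which was added after seeing the data. With 1 column (IP and input) left out they ranged from 0% to 4.35% lower and from 0% to 7.92% higher. Bins below N2 in all 3 set-25 columns went to 23.9% after median-centring, and those above to 14.3%, and to 13.4% at equal spread. Of the 18 parts, 10 were lower and 2 higher after median-centring, 6 lower and 2 higher at equal spread, and 6 lower with strain-mean inputs. With 1 column left out, 3 to 6 parts were lower and 6 to 11 higher.

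Letters were not taken as pairs, and the correlations by letter were mixed. Deviations from the group means correlated by 0.607, 0.19 and 0.649 between set-25 and N2 IP libraries of the same letter, but by 0.212, -0.357 and 0.643 between their inputs. Between set-25 and met-2 IP libraries of the same letter the correlations were -0.411, -0.212 and -0.471, and between their inputs 0.653, 0.23 and 0.827. Between met-2 and N2 they were -0.535, -0.126 and -0.338 for IP libraries and 0.711, 0.0602 and 0.8 for inputs. The replicate block gave 8.60% falls and 11.6% rises, and 0.0997% and 0% for columns b and c against a. Precision is limited by 3 columns a side and by the single column a, more than by 1892 or more reads in the median bin.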
